A study of Mus musculus with 2 samples.

Results

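Cluster 16 was 1 of the 21 clusters that the authors deposited for single cells of digested mouse aortas. It was made up mainly of smooth muscle cells, and every member carried the non-coding RNA Meg3, the non-coding RNA Rian or both. Both were found in 31 of the 107 double knockout members and 55 of the 61 Apoe knockout members. Its members were all cells with the deposited cluster number 16, each barcode counted once, and they numbered 168 of 7917 cells. The double knockout library gave 107 of its 5489 cells, or 1.95% (95% exact Clopper-Pearson interval 1.60 to 2.35). The Apoe knockout library gave 61 of its 2428 cells, or 2.51% (1.93 to 3.22). All intervals here are at the 95% level and cover counting error only. With 1 library per genotype there was no replicate, so no difference between the genotypes was tested.

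The double knockout library came from EC-iDKO/Apoe-/- mice (genotype label DKO) and the other from Apoe-/- mice (genotype label ApoE). Both groups lacked Apoe, the lipoprotein ligand whose loss gives mice high cholesterol and atherosclerosis, and both ate a western diet for 12 weeks. The labels do not name the genes removed in EC-iDKO, the number or age of the mice, or whether aortas were pooled, and the deletion was not checked in these cells. The protocol names CD31 microbeads while the cell type label reads all cells, so a share of cells can depend on the bead step.

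Meg3, Rian and Mirg are long non-coding RNAs of the imprinted Dlk1-Dio3 domain, which are transcribed from the maternal chromosome, while the protein-coding genes Dlk1, Rtl1 and Dio3 are expressed from the paternal one. Meg3 is a polyadenylated nuclear RNA, Rian is a host of small nucleolar RNAs, and Mirg is a host of microRNAs. Contractile smooth muscle cells of the aortic media express actin, myosin and their regulators, and in atherosclerosis a part of them lowers these genes and takes on a modulated, matrix-rich state. Dlk1, Rtl1 and Dio3 were not analysed here.

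The RNAs that set the cluster apart lie in a row on the plus strand of chromosome 12 (build GRCm38, the build named by the submitters as mm10, with GENCODE gene models). Meg3 spans chr12:109541001-109571726 and is annotated as a long intergenic RNA. Rian, a processed transcript, spans chr12:109603940-109661716. The long intergenic RNA B830012L14Rik spans chr12:109695586-109702587, and Mirg, another one, spans chr12:109729764-109749460. Their starts lie 62.9, 155 and 189 kb after that of Meg3 for Rian, B830012L14Rik and Mirg, in that order.

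The table of start windows holds a pair of starts for Meg3, and the upstream one is shown because it is the first of the row, and Meg3 is the gene of the row with the most UMIs in the cluster. The window chr12:109540746-109541045, plus strand, holds 300 bases around the RefSeq start at 109540996 (GRCm38.p6), which lies just before the start of the GENCODE model. Capitals mark a cAMP response element (TGACGTCA) and a TATA stretch (TATAAA, which occurs on both strands within the capitals).
Meg3 start window: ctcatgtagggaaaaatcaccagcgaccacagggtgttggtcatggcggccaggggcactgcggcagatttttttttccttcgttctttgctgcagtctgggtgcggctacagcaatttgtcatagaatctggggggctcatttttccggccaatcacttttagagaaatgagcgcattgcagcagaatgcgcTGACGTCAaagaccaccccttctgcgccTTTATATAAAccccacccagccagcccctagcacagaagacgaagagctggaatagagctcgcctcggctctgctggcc
The element TGACGTCA begins 57 bases and the TATA stretch 29 bases before that RefSeq start. Searched on both strands in all 32851 RefSeq start windows of the same length, TGACGTCA was in 588 (1.79%) and TATAAA in 4473 (13.6%). CCAAT, found once in this window, was in 12289 (37.4%). The window held 13 CG pairs, against a median of 7 over all windows, and that of Rian held 0. The downstream Meg3 window, chr12:109545148-109545447, held 1 CG pair and none of the 3 motifs.

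The gene bodies also hold microRNA precursors on the same strand: 2 precursor genes with 3 mature forms in Meg3, 3 with 6 in Rian and 14 with 26 in Mirg (RefSeq, GRCm38.p6). The 9 mature sequences of Meg3 and Rian follow, with the seed (bases 2 to 8) in capitals, because they lie within the transcripts that mark the cluster.
mmu-miR-1906: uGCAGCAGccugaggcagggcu
mmu-miR-770-5p: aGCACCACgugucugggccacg
mmu-miR-770-3p: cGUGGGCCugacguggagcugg
mmu-miR-341-5p: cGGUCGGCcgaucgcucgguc
mmu-miR-341-3p: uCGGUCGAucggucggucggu
mmu-miR-1188-5p: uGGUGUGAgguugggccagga
mmu-miR-1188-3p: uCCGAGGCuccccaccacacccugc
mmu-miR-370-5p: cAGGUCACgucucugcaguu
mmu-miR-370-3p: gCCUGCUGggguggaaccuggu
No 2 of these 9 share a seed. The 3′ tags count polyadenylated RNA, so none of the values below is a level of a mature microRNA.

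Meg3 was 17.6-fold higher (interval 14.7 to 21.1) in double knockout cluster 16 than in the other cells of the deposited SMC (smooth muscle) class of that library, and 12.9-fold higher (11.7 to 14.3) in the Apoe knockout. Levels are UMIs (molecules counted by their barcode) added up within a population and expressed per 1000000 of its UMIs (CPM). Meg3 stood at 1350 CPM, from 174 UMIs, in double knockout cluster 16 and at 76.7 CPM in the other SMC class cells. It stood at 1552 CPM, from 599 UMIs, in Apoe knockout cluster 16 and at 120 CPM in the other SMC class cells. The clusters were made by the authors from the genes of these same cells, so these ratios describe the cluster and carry no test.

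Rian had a larger ratio still. It stood at 636 CPM (82 UMIs) in double knockout cluster 16 and 15.97 CPM in the other SMC class cells, a ratio of 39.8 (29.1 to 54.5). It stood at 687 CPM (265 UMIs) in Apoe knockout cluster 16 and 34.6 CPM in the other SMC class cells, a ratio of 19.8 (16.7 to 23.5). B830012L14Rik, of no known role, was at 93.1 CPM (12 UMIs) against 5.51 CPM in the double knockout, a ratio of 16.9 (7.88 to 34.0). The Apoe knockout gave 135 CPM (52 UMIs) against 6.80 CPM, a ratio of 19.8 (13.3 to 29.4). Mirg had 14 UMIs in Apoe knockout cluster 16, 36.3 CPM against 2.19 CPM, a ratio of 16.6 (7.64 to 35.3). Double knockout cells had 0 UMIs in cluster 16 and 3 in the other SMC class cells, so it was not measurable at this depth. B830012L14Rik and Mirg fall outside the rule for named genes and were chosen after their values were seen.

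Among the deposited clusters with at least 20 cells, cluster 16 ranked first for Meg3, Rian and B830012L14Rik in both libraries, of 21 in the double knockout and 20 in the Apoe knockout. The next for Meg3 and Rian was cluster 14, of which 82.8% of cells have the fibroblast class. Meg3 in cluster 14 was at 479 CPM (366 to 615) in the double knockout and 827 CPM (752 to 907) in the Apoe knockout, so cluster 16 was 2.82-fold and 1.88-fold above it. Rian in cluster 14 was at 70.6 and 146 CPM, and cluster 16 was 9.01-fold and 4.69-fold above it. Cluster 18, whose 62 cells all have the SMC class, came next for Meg3 and was the highest of the other smooth muscle clusters, at 322 CPM (139 to 635) in the double knockout and 544 CPM (367 to 776) in the Apoe knockout. Rian in cluster 18 had 0 UMIs in the double knockout, from 27 cells, and was at 145 CPM (62.6 to 286) in the Apoe knockout, from 8 UMIs. For Meg3 the lowest cluster was 15 in the double knockout, at 37.6 CPM, and 13, the immune class, in the Apoe knockout, at 25.4 CPM. Cluster 16 held 1.88% of the double knockout library's UMIs and 2.90% of the Apoe knockout library's. Yet it held 21.1% and 20.7% of their Meg3 UMIs, and 38.7% and 31.1% of their Rian UMIs.

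**Figure D1:**
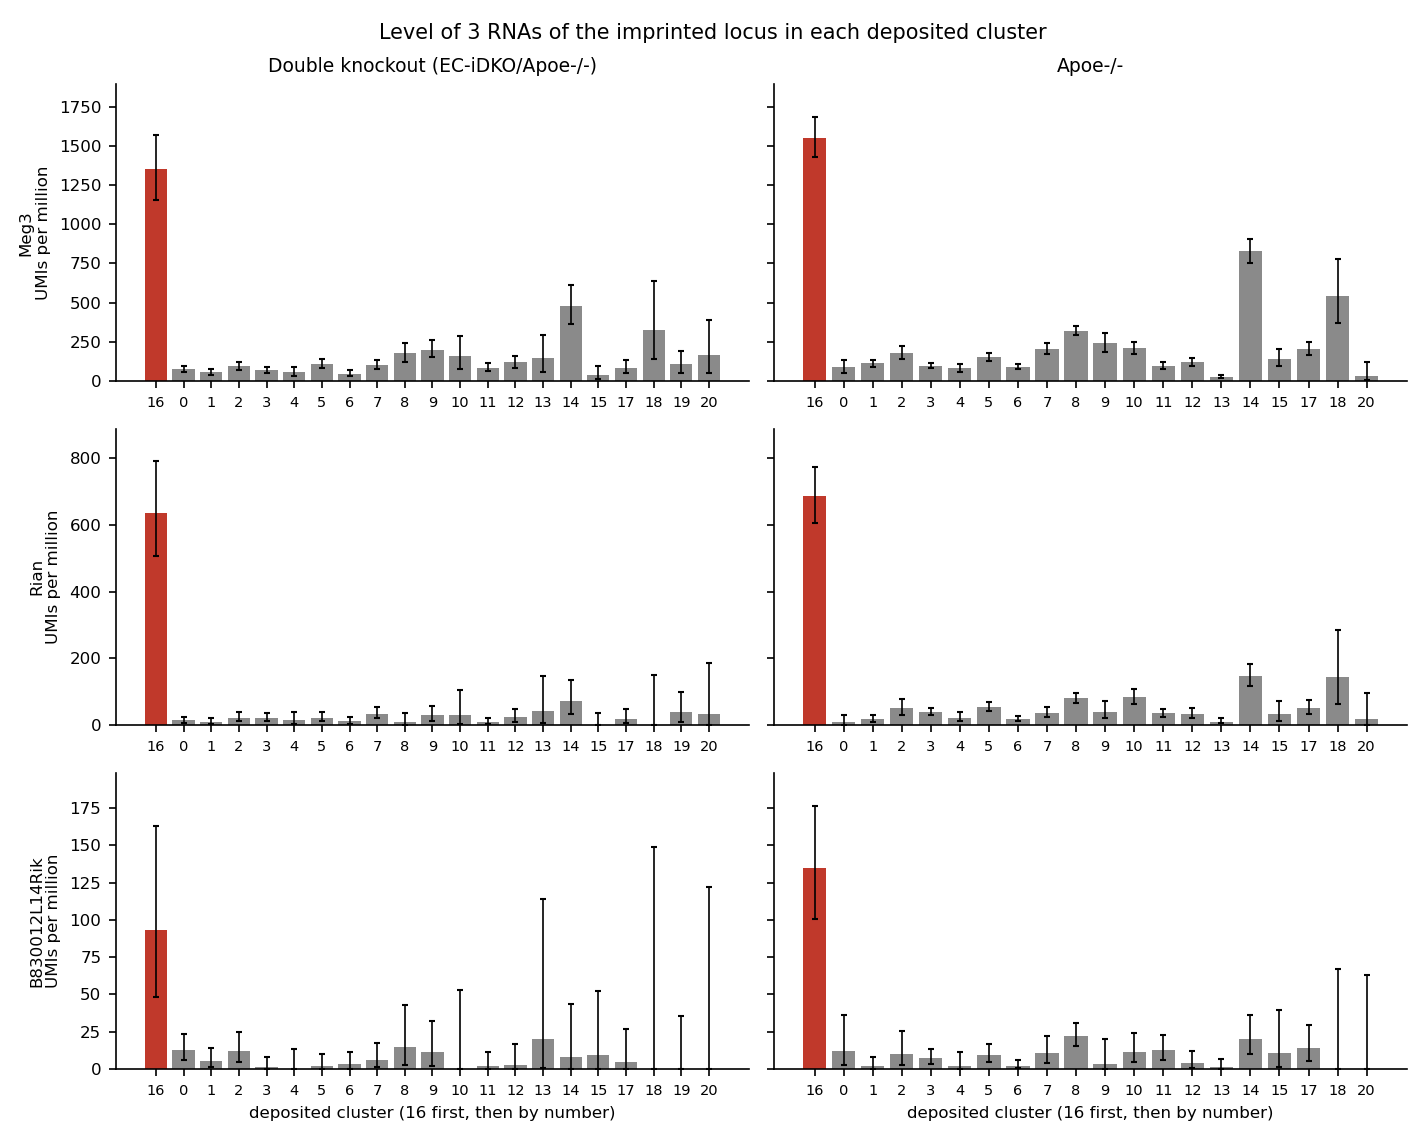
CPM (vertical axis) of Meg3, Rian and B830012L14Rik in each deposited cluster with at least 20 cells (horizontal axis, cluster 16 in red and first), in the double knockout (left) and Apoe knockout (right) library. Bars are UMIs summed over the cells and lines exact Poisson 95% intervals; the Meg3 bars of cluster 16 stand at 1350 and 1552, above cluster 14 at 479 and 827.

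Genes farther out on either side of the row of non-coding RNAs did not share the difference. The nearest with at least 100 UMIs were Wars, which starts at -681 kb from the Meg3 start, and Ppp2r5c, at 906 kb. Closer genes were therefore not compared. The genes on either side, from Yy1 to Traf3, had 8 members with at least 100 UMIs in each library. They include the transcription factor gene Yy1, the tryptophanyl-tRNA synthetase gene Wars, the phosphatase subunit gene Ppp2r5c and the dynein heavy chain gene Dync1h1. None was called in either library, where a call means a difference of 2-fold or more, up or down, whose interval leaves out 1. Of all genes compared with the other SMC class cells, 142 of 10410 (1.36%) were called higher in double knockout cluster 16 and 61 (0.586%) lower. In Apoe knockout cluster 16, 127 of 11131 (1.14%) were called higher and 92 (0.827%) lower. Their ratios ran from 0.58 (Ankrd9) to 1.87 (Traf3) in the double knockout, with a median of 1.06. Those of the Apoe knockout ran from 0.71 (Yy1) to 1.24 (Hsp90aa1), with a median of 0.92. The interval held 1 for 7 of the 8 in each library, and the exception was the chaperone gene Hsp90aa1, at 1.26 (1.10 to 1.44) and 1.24 (1.18 to 1.30).

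**Figure D2:**
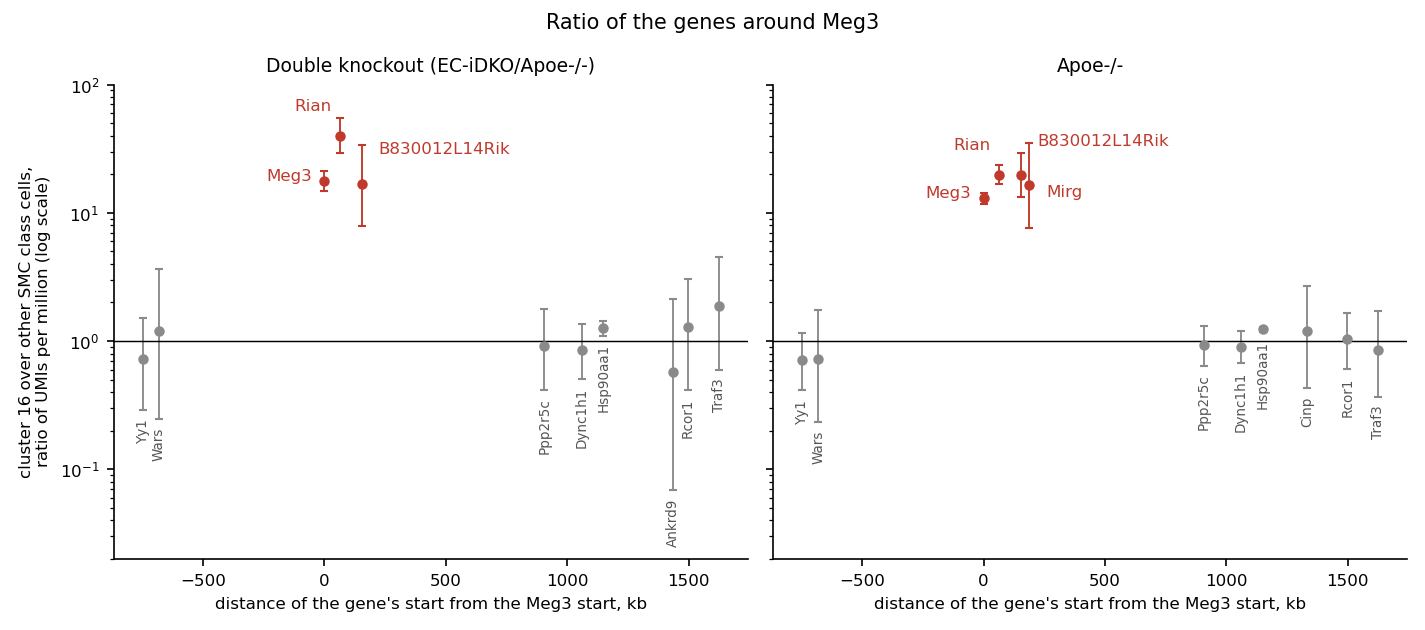
Ratio of CPM in cluster 16 over the other SMC class cells (vertical, log scale) against the distance of each gene's start from that of Meg3 in kb (horizontal), for the double knockout (left) and Apoe knockout (right). Points are genes with at least 100 UMIs and the RNAs of the row (red, those with a UMI in cluster 16), lines are 95% intervals; the grey neighbours lie between 0.58 and 1.87 and the red points at 12.9 or above.

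Other imprinted genes did not share the pattern as a group. A list of 39 imprinted genes outside the row, written after the values of the row were seen, had 24 members with at least 20 UMIs in each library. Of these, 1 was called higher in double knockout cluster 16 than in the other SMC class cells and 2 lower. For the Apoe knockout 0 of the 24 were called in either direction. Calls over all genes were 1.36% higher and 0.586% lower in the double knockout, and 1.14% and 0.827% in the Apoe knockout. The median log2 ratio of the 24 was -0.12 and -0.27, and the interval held 1 for 21 of them in each library. Uncalled but lower in the Apoe knockout, with intervals below 1, were Gnas (0.73, 0.62 to 0.86), H13 (0.54, 0.27 to 0.97) and Peg3 (0.61, 0.38 to 0.95). The 1 higher gene was Snrpn, which encodes a splicing protein, with 9 UMIs in double knockout cluster 16 (69.8 against 29.0 CPM, 2.41-fold). Snrpn was at 41.4 against 30.1 CPM in the Apoe knockout. The 2 lower genes, Grb10 and Impact, had 1 and 3 UMIs in double knockout cluster 16. The long non-coding RNA of another imprinted domain, Kcnq1ot1, was at 178 against 122 CPM in the double knockout, with an interval of the ratio from 0.92 to 2.21. Apoe knockout Kcnq1ot1 was at 119 against 102 CPM (ratio 0.85 to 1.58).

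Cell by cell, every member carried Meg3 or Rian. Of the 107 double knockout cells 31 had both, 46 Meg3 alone, 30 Rian alone and 0 neither. Of the 61 Apoe knockout cells 55 had both, 5 Meg3 alone, 1 Rian alone and 0 neither. Among the other SMC class cells, 25 of 4301 in the double knockout and 117 of 1476 in the Apoe knockout had both, and 3923 and 1067 had neither. The counts behind a member were small in the shallow library. A double knockout member had a median of 1 Meg3 UMI (0 to 9) and 1 Rian UMI (0 to 5). An Apoe knockout member had a median of 8 Meg3 UMIs (0 to 34) and 3 Rian UMIs (0 to 18). In 46 of the 107 double knockout members a single UMI of either RNA was all there was, against 1 of the 61 Apoe knockout members.

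**Figure D3:**
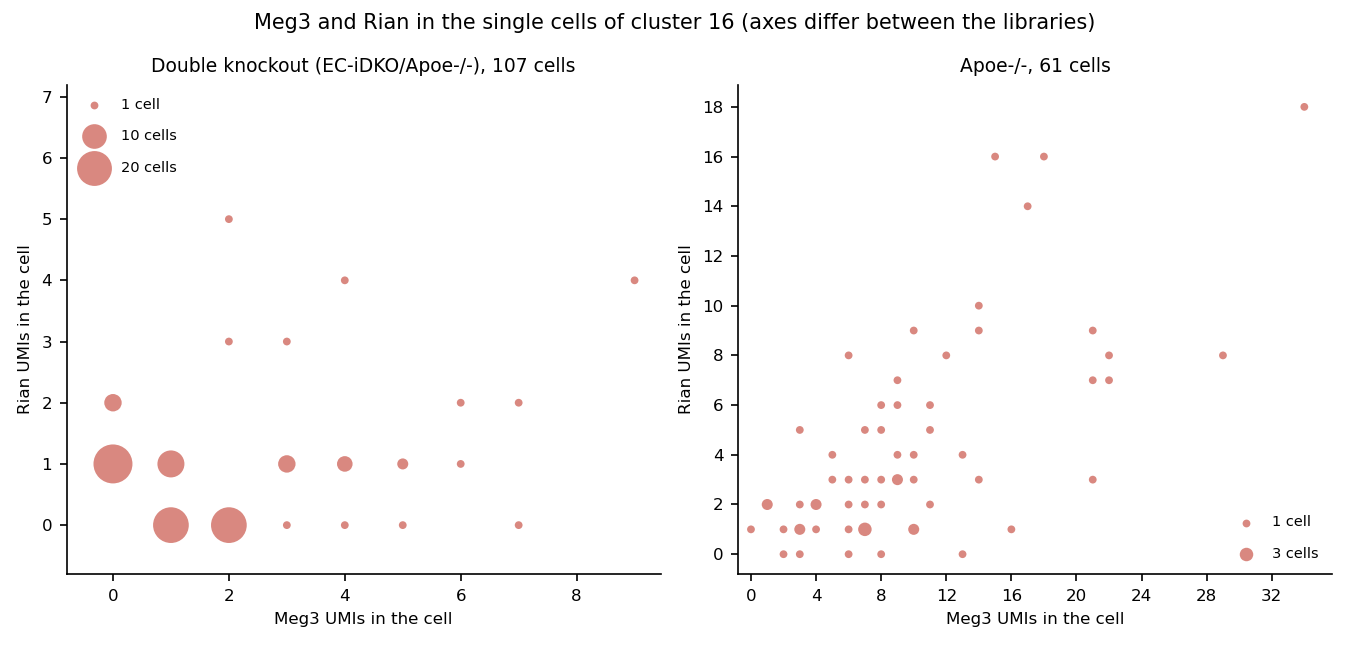
Rian UMIs (vertical) against Meg3 UMIs (horizontal) in each cell of cluster 16, for the double knockout (left, 107 cells) and Apoe knockout (right, 61 cells); the area of a circle is the number of cells at that pair of counts. No cell sits at 0 for both RNAs, and the axes of the Apoe knockout reach 34 Meg3 and 18 Rian UMIs, against 9 and 5 in the double knockout.

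The share of cells with a Meg3 UMI was 72.0% (62.5 to 80.2) in double knockout cluster 16 and 98.4% (91.2 to 100.0) in Apoe knockout cluster 16. In the other SMC class cells it was 7.58% and 25.2%. In cluster 13, whose cells express macrophage genes, it was 9.43% in the double knockout and 12.5% in the Apoe knockout. Rian was found in 57.0% (47.1 to 66.5) and 91.8% (81.9 to 97.3) of members, in 1.79% and 10.4% of the other SMC class cells, and in 3.77% and 5.56% of cluster 13. The median depth was 692 UMIs in double knockout cluster 16, 773 in the other SMC class cells and 696 in cluster 13. For the Apoe knockout these medians were 6357, 4832 and 4565 UMIs. The cluster's shares were thus far above those of cluster 13, in the double knockout at a like depth. The Meg3 and Rian shares of the other SMC class cells were below those of cluster 13 in the double knockout, where cluster 13 had 53 cells. In the Apoe knockout they were above those of cluster 13. Whether such low shares are background was not tested.

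With every cell thinned to 500 UMIs, Meg3 was seen in 47.6% of double knockout and 62.3% of Apoe knockout members, against 3.49% and 5.89% of the other SMC class cells. Rian was then seen in 35.2% and 23.0% of members, against 0.77% and 1.49%. For every 100 Meg3 UMIs, cluster 16 held 47.1 Rian UMIs (35.8 to 61.6) in the double knockout and 44.2 (38.1 to 51.2) in the Apoe knockout. The other SMC class cells held 20.8 (16.3 to 26.3) and 28.8 (25.2 to 32.9). These shares pool all depths. The cells were placed in the cluster by such genes, so the higher share of Rian is a description too. Meg3 and Rian were above the other SMC class cells in the deeper members too. The ratio of Meg3 was smaller there than in shallower members in both libraries, and that of Rian in the double knockout. In the 12 double knockout members with at least 3000 UMIs, Meg3 was at 1213 CPM, against 93.0 CPM in the other SMC class cells of that depth (13.04-fold, 9.48 to 17.7), and 9 of the 12 had both RNAs. In the 43 Apoe knockout members of that depth it was at 1394 CPM, against 116 CPM (12.1-fold, 10.8 to 13.5), and 41 of the 43 had both. Rian in those deeper members was at 355 CPM against 15.2 CPM in the double knockout (23.4-fold, 11.9 to 44.7) and at 691 CPM against 34.2 CPM in the Apoe knockout (20.2-fold, 16.9 to 24.2). Double knockout members under 1000 UMIs had Rian at 877 CPM against 13.7 CPM (63.9-fold, 38.5 to 108). Their Meg3 was at 1634 against 76.6 CPM (21.4-fold, 16.1 to 28.2), an interval that overlaps that of the deeper members. The 15 Apoe knockout members with 1000 to under 3000 UMIs had Meg3 at 3235 against 153 CPM (21.2-fold, 16.1 to 27.7). Their Rian was at 582 against 37.0 CPM (15.7-fold, 8.29 to 29.0), from 18 UMIs. That ratio was below the one of Meg3, with overlapping intervals, so the higher share of Rian was not seen at this depth. At the other depths of both libraries the ratio of Rian was above that of Meg3. The 12 deep double knockout members held 17 Rian UMIs and 58 Meg3 UMIs, a lower share of Rian than over all members of that library.

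Outside the cluster some cells also held both RNAs, and more of them in the deeper Apoe knockout library. As counted above, 25 of the 4301 other double knockout SMC class cells had both, and 52 had Rian alone. Of the 1476 other Apoe knockout SMC class cells 117 had both, more cells than the 55 members with both, and 37 had Rian alone. With these cells thinned to 500 UMIs, Rian was seen in 1 of 150 double knockout cells with Meg3 (0.667%, 0.017 to 3.66), against 0.772% of cells without it. Thinned to 1000 UMIs, where fewer cells remained, it was in 3 of 93 with Meg3 (3.23%, 0.67 to 9.14), against 1.57% without it. The double knockout thus gives no direction. The Apoe knockout had Rian in 7 of 87 cells with Meg3 at 500 UMIs (8.05%, 3.30 to 15.9), against 1.08% of cells without it, and at 1000 UMIs in 11 of 130 (8.46%, 4.2998 to 14.6), against 1.52%. Cells with 3 or more Rian UMIs numbered 5 and 35 in cluster 16 of the double knockout and Apoe knockout, and 3 and 27 among the other SMC class cells.

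Over all SMC class cells at 500 UMIs, members included, the gene whose detection correlated best with that of Meg3 was Rian, at 0.09 in the double knockout (4402 cells, 8336 genes) and 0.22 in the Apoe knockout (1537 cells, 5064 genes). That pool holds the members, which were grouped by such genes. Without the members, Rian was not among the 5 best in the double knockout (4297 cells), where Rbmx came first at 0.08. It was the 2nd in the Apoe knockout (1476 cells), at 0.14, after Slc36a4 at 0.16. Correlations this weak in sparse counts are no finding.

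The smooth muscle name given by the deposited class held against the markers. Of the 107 double knockout members 106 had the deposited class SMC and 1 modEC, and of the 61 Apoe knockout members 60 had SMC and 1 fibroblast. They made up 2.41% (1.97 to 2.90) and 3.91% (2.99 to 5.00) of the SMC class in the 2 libraries. All 12 contractile markers were measured, and 0 were called against the other SMC class cells in either library. Calls over all genes were 1.36% higher and 0.586% lower in the double knockout, and 1.14% and 0.827% in the Apoe knockout. With such shares 0 of 12 is no result by itself, and the levels follow. Acta2, smooth muscle actin, was at 23720 CPM in double knockout cluster 16 and 22966 CPM in the other SMC class cells. Acta2 was at 22230 CPM in Apoe knockout cluster 16 and 23375 CPM in the others. Myh11, the smooth muscle myosin heavy chain, was at 5820 against 6144 CPM in the double knockout and 5881 against 6256 CPM in the Apoe knockout. Myocd, the cofactor that drives these genes, was at 279 against 234 CPM and at 350 against 320 CPM. Summed, the 12 markers stood at 62307 against 60920 CPM in the double knockout (ratio 1.02, 1.00 to 1.05) and at 54957 against 59011 CPM in the Apoe knockout (0.93, 0.92 to 0.94). Among all clusters the sum ranked 4 of 21 and 7 of 20.

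Markers of endothelial cells, macrophages, T cells and cycling cells were far below the cluster highest for each, while those of pericytes were less so. The pericyte list, of which 8 of 9 genes are in the table and which holds genes that smooth muscle cells also express, such as Notch3 and Pdgfrb, summed to 2080 CPM in double knockout and 2777 CPM in Apoe knockout cluster 16. In the other SMC class cells it summed to 2157 and 3107 CPM, and 0 of its 7 measured genes were called in either library. By that sum the cluster ranked 4 of 21 and 7 of 20, and cluster 5 was highest, at 6550 and 7562 CPM. The 14 endothelial markers summed to 202 CPM in double knockout and 135 CPM in Apoe knockout cluster 16, with 6 and 9 of them at 0. In the other SMC class cells they summed to 217 and 191 CPM, and in the highest cluster of each library to 7107 and 2648 CPM. The 12 macrophage markers summed to 85.4 and 82.9 CPM, with 8 and 4 at 0, against 36.7 and 148 CPM in the other SMC class cells. In the double knockout that sum was thus above the other SMC class cells and ranked 6 of 21 clusters, with cluster 13 highest at 4875 CPM. The 12 fibroblast markers, which include Pdgfra and the proteoglycans Lum and Dcn, summed to 698 and 653 CPM, against 614 and 681 CPM in the other SMC class cells. They reached 7110 and 16010 CPM in cluster 8. T cell markers were at 7.76 and 0 CPM and cycling markers at 0 and 2.59 CPM. Of the macrophage markers 1 was called higher in the double knockout, the lysosomal Cd68, at 3 UMIs in cluster 16. In the Apoe knockout lysozyme, Lyz2, was called lower, at 23.3 against 47.5 CPM. Calls over all genes were 1.36% higher and 0.586% lower in the double knockout, and 1.14% and 0.827% in the Apoe knockout. Counts of 0 or 1 call in these lists are therefore no result about them.

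Of the 10 modulated smooth muscle markers, 1 was called in each library against the other SMC class cells. Beside it, 1.36% of all genes were called higher in the double knockout and 0.827% lower in the Apoe knockout. A single call in so short a list is no result about the list. In the double knockout the called marker was the proteoglycan Dcn, at 69.8 against 18.5 CPM, from 9 UMIs, and in the Apoe knockout Dcn was at 67.4 against 110 CPM. In the Apoe knockout the called marker was the adhesion receptor Vcam1, lower at 5.18 against 44.8 CPM, and in the double knockout Vcam1 was at 93.1 against 120 CPM. The list summed to 2801 against 2525 CPM in the double knockout and 2676 against 2866 CPM in the Apoe knockout. Against all other cells of the library, 6 of the 10 were called lower in the double knockout and 9 of the 10 in the Apoe knockout, where 0.794% and 2.39% of all genes were called lower. There the Apoe knockout sum was 2676 against 9368 CPM. Those other cells include fibroblast and modEC cells.

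Beyond Meg3 and Rian, the abundant genes of the cluster were those of the other smooth muscle cells. Of 796 genes at 200 CPM or more in either population of the double knockout, 737 (92.6%) were within 1.5-fold of the other SMC class cells, 4 were called higher and 4 lower. The 4 higher were Rian, Meg3, the oligosaccharyltransferase subunit gene Rpn1 and the RNA polymerase II subunit gene Polr2a. The 4 lower were the adipocyte genes Cfd, Car3 and Fabp4 and the lipid desaturase gene Scd1. Those 4 are carried in this library by cluster 15, where adipocyte markers summed to 59473 CPM. For the Apoe knockout 759 of 767 abundant genes (99.0%) were within 1.5-fold, 3 were called higher, Rian, Meg3 and the actin-binding Abra, and 0 lower. Over the clusters made mainly of SMC class cells, that share ran from 22.5% to 99.1%.

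**Figure D4:**
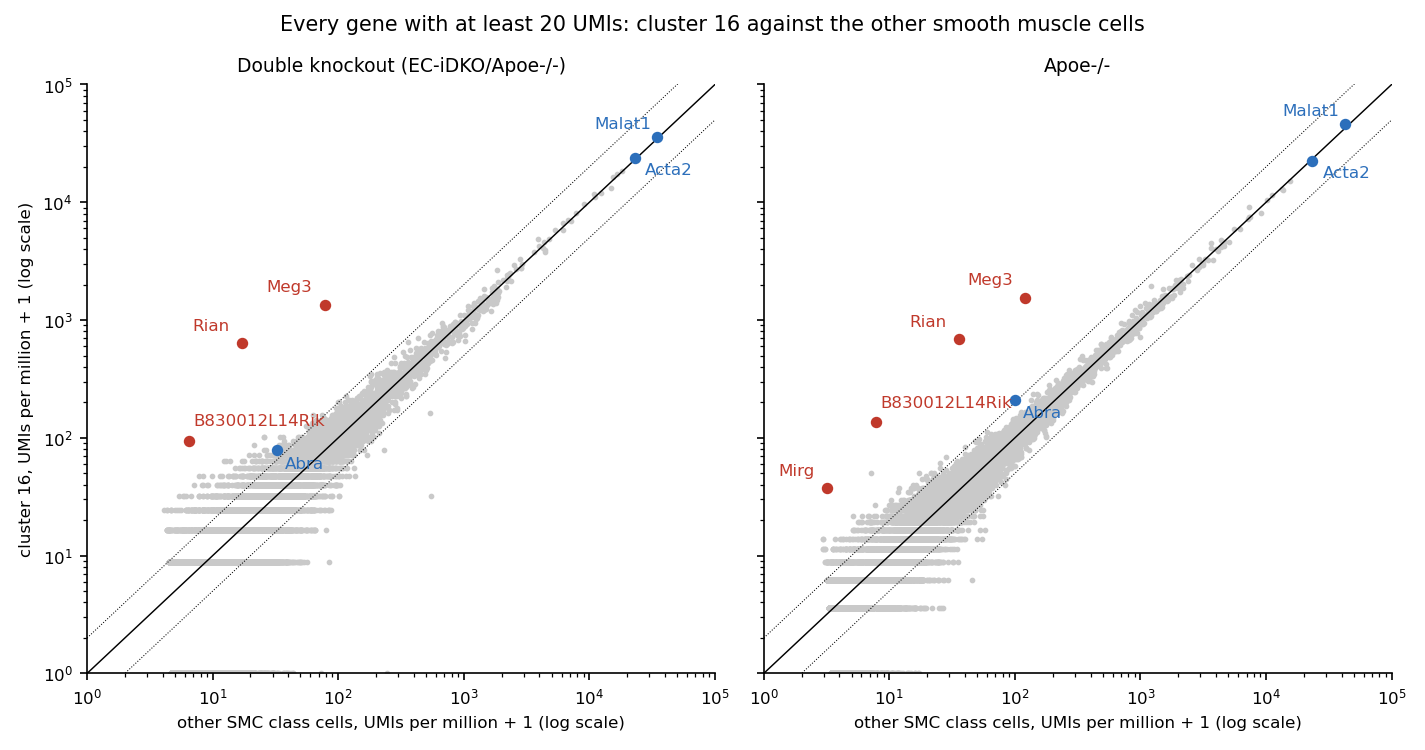
CPM plus 1 in cluster 16 (vertical) against the other SMC class cells (horizontal), both on log scales, for every gene with at least 20 UMIs in the double knockout (left) and Apoe knockout (right). The solid line marks equal levels and the dotted lines a 2-fold difference; Meg3, Rian, B830012L14Rik and Mirg (red, Mirg in the Apoe knockout) stand above the line, while Acta2 lies on it at 23720 against 22966 and at 22230 against 23375.

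Against all other cells of the library, 140 of 10955 genes (1.28%) were called higher in double knockout cluster 16 and 87 (0.794%) lower. Of 12629 genes in the Apoe knockout, 115 (0.911%) were called higher and 302 (2.39%) lower. The calls of the libraries shared 8 higher genes, or 5.71% of the double knockout's and 6.96% of the Apoe knockout's. These were Meg3, Rian, B830012L14Rik, Abra, Pnldc1, Naif1, Nanos1 and the predicted gene Gm34455. Named because they were shared, they were chosen after their values were seen where the rule does not name them. Abra, an actin-binding protein of muscle, stood at 77.6 against 28.1 CPM in the double knockout, from 10 UMIs (2.76-fold, 1.30 to 5.19). Apoe knockout members had Abra at 210 against 76.8 CPM (2.73-fold, 2.15 to 3.43). Its 81 Apoe knockout UMIs came from 25 of the 61 cells, 16 of them from a single cell. Pnldc1, a trimmer of small RNAs of the germ line, had 8 and 11 UMIs, at 62.1 against 10.7 CPM and 28.5 against 11.0 CPM. Gm34455 stood at 101 against 24.5 CPM and 95.9 against 47.3 CPM. Naif1 and Nanos1 had 3 to 7 UMIs.

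Against the other SMC class cells alone, 7 genes were called higher in both libraries, 4.93% of the double knockout's calls and 5.51% of the Apoe knockout's. Beside Meg3, Rian, B830012L14Rik, Abra and Pnldc1 they were Acan and Nkapd1. Acan, the cartilage proteoglycan aggrecan, was at 85.4 against 36.7 CPM in the double knockout (2.32-fold, 1.14 to 4.25) and 82.9 against 39.1 CPM in the Apoe knockout (2.12-fold, 1.43 to 3.05). The 11 and 32 UMIs came from 9 and 14 cells. A single gene was called lower in both, Tnnt2, the troponin T of heart muscle, at 46.6 against 121 CPM in the double knockout and 31.1 against 62.7 CPM in the Apoe knockout. None of these ratios reached those of the 4 RNAs on chromosome 12.

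The rule for named genes, the 15 highest called ratios against all other cells at 50 CPM or more in the cluster, gave little else that both libraries shared. In the double knockout the 13 genes after Rian and Meg3 rested on 7 to 13 UMIs each. After Pnldc1 they ran from Cog8, a subunit of a Golgi tethering complex, at 5.28-fold (2.20 to 10.9), to N4bp2 at 3.21-fold. Of these 15 genes, 3 (Rian, Meg3 and Pnldc1) were called higher in the Apoe knockout as well. Ctla2a, a protease inhibitor gene at 101 against 30.0 CPM in the double knockout, had 0 UMIs in Apoe knockout cluster 16 and was called lower there. In the deeper Apoe knockout library only 5 genes met the rule: Rian, Meg3, Abra, Fjx1 at 54.4 against 20.9 CPM (2.60-fold) and Tmem132a at 67.4 against 33.3 CPM (2.02-fold). Fjx1 had 2 UMIs in double knockout cluster 16 and Tmem132a 1.

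The lowest genes were mostly those of other cell types. In the double knockout they were led by osteopontin, Spp1, at 7.76 against 198 CPM, and the complement factor gene Cfd, at 31.0 against 449 CPM. Also among the 8 lowest there were the surface antigen Ly6a, the proteoglycan Lum and the cytokine-like Cytl1, each with 1 to 3 UMIs. Of these 8, 5 were also called lower in the Apoe knockout, where Spp1 was at 49.2 against 1367 CPM. The lowest genes of the Apoe knockout were Vcam1, at 5.18 against 387 CPM, and 7 genes of macrophages and antigen presentation, among them H2-Aa, Cd74 at 10.4 against 503 CPM and the complement genes C1qa and C1qb. Of these 8, Vcam1 was also called lower in the double knockout, at 93.1 against 371 CPM. The other 7 were at 12.9 CPM or less in all other double knockout cells, where the immune class cluster 13 had 53 cells, against 144 cells in the Apoe knockout.

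Against the other SMC class cells, at most 3 members of any pathway list were called in a library. Of all genes, 1.36% were called higher and 0.586% lower there in the double knockout, and 1.14% and 0.827% in the Apoe knockout. With such shares, 0 or 1 call in a short list is no result about that list. Immediate early genes, which respond within minutes to stimuli, had 1 of 19 called higher in the double knockout, the flow-responsive factor Klf2 at 155 against 61.7 CPM, and 0 in the Apoe knockout. Of 12 heat shock genes 0 were called in either library. Fibrillar collagens (10 measured) and respiratory chain genes of the nucleus (16) likewise had 0 called in either library. The elastic fibre list had 2 of 14 called higher in the Apoe knockout, Fbln1 and Efemp1 at 7 and 4 UMIs, and 0 of 12 in the double knockout. Lipid handling genes had 3 of 10 called lower in the double knockout, Lpl, Fabp4 and Plin2, and 1 of 11 in the Apoe knockout, Fabp5. Lpl had 0 UMIs and Plin2 1 UMI in double knockout cluster 16. The SMC class compared includes 79 of the 160 cells of cluster 15, the cluster with the highest adipocyte markers, so these calls are no trait of cluster 16 alone. The nuclear retained RNA list had 1 of 5 called in each library, which was Meg3. The best known of that list, Malat1, was at 35941 against 34592 CPM in the double knockout and 46219 against 42413 CPM in the Apoe knockout.

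The cluster was found at some of the deposited settings of the authors' clustering and not at others. At resolutions 0.1 and 0.2 the members lay inside a large group, 167 of the 168 among 6123 cells and 159 among 4548 cells. At resolution 0.4, 143 of the 168 made up a cluster of 144 cells. At 0.6, 0.8 and 1, a cluster of 148, 148 and 149 cells held members of cluster 16 alone. Members had a median of 4.53% mitochondrial UMIs in the double knockout and 4.56% in the Apoe knockout, against 4.13% and 4.90% in the other SMC class cells. Over 10% mitochondrial UMIs were found in 9.35% and 23.0% of members, against 5.98% and 16.2% of the other SMC class cells. The libraries shared 5 cell barcodes, and 2 of those cells, 1 in each library, were members. Without the cells of shared barcodes the log2 ratio of Meg3 to all other cells was 3.80 in the double knockout and 3.17 in the Apoe knockout, against 3.81 and 3.13 with them.

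Between the libraries, Meg3, Rian and B830012L14Rik were not called within the cluster. Meg3 was at 1350 CPM in double knockout members and 1552 CPM in Apoe knockout members, a ratio of 0.87 (0.73 to 1.03). Rian was at 636 and 687 CPM, a ratio of 0.93 (0.71 to 1.19), and B830012L14Rik at 93.1 and 135 CPM, a ratio of 0.69 (0.34 to 1.31). Each interval held 1, which does not show that the levels were alike, and with cells thinned to 500 UMIs Meg3 was called lower in double knockout members (log2 ratio -0.68), while that of Rian was 0.57, not called. In the other SMC class cells Meg3 was at 76.7 CPM in the double knockout and 120 CPM in the Apoe knockout, a ratio of 0.64. Rian was at 15.97 and 34.6 CPM there, a ratio of 0.46. Set against those, the direction turned, with members 1.36-fold for Meg3 and 2.01-fold for Rian above the change of the other SMC class cells. These 2 values pool all depths and have no interval here. At 3000 UMIs and over, Rian was at 355 CPM in double knockout members, from 17 UMIs, and at 691 CPM in Apoe knockout members. The other SMC class cells of that depth had Rian at 15.2 and 34.2 CPM. Meg3 was at 1213 and 1394 CPM in those deeper members, against 93.0 and 116 CPM. A total of 231 of 3785 genes (6.1%) were called higher in double knockout members and 216 (5.71%) lower, where a call needed a ratio of at least 1.5 and an interval without 1. Of these, 92 (39.8%) and 100 (46.3%) were called the same way in the other SMC class cells, and 0 the opposite way. Among those other cells 1255 (10.5%) of 11943 genes were called higher and 900 (7.54%) lower. Genotype and library cannot be told apart, and the median depth was 692 UMIs per member in the double knockout against 6357 in the Apoe knockout.

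The highest of the named genes was Hspb7, a small heat shock protein of muscle, at 349 CPM (45 UMIs) in double knockout members and 38.9 CPM (15 UMIs) in Apoe knockout members. That was a ratio of 8.99 (4.92 to 17.4), and in the other SMC class cells the ratio was 4.42. The mitochondrial leucyl-tRNA synthetase Lars2 was at 520 and 88.1 CPM, a ratio of 5.90 in members and 6.20 in the other SMC class cells. The cysteine dioxygenase Cdo1 had ratios of 3.85 and 5.18, and Tcap, which caps titin in muscle, 3.78 and 2.43, in the same order. Divided by the ratio of the other SMC class cells, Lars2 and Cdo1 turned to 0.95 and 0.74, below 1. Other higher genes were the early response genes Ier3 and Junb, the protease gene Ctsh, the small GTPase Rras and the interferon-induced Ifitm3, with ratios of 3.02 to 3.75 in members. Those are not genes of the contractile programme. Their lowest log2 ratios under the alternatives tried were 0.01 for Junb, 0.20 for Rras, 0.29 for Ier3, 0.77 for Ifitm3 and 1.12 for Ctsh. They are thus not shown to be particular to the cluster. Of the 12 contractile markers 1 was called, Actg2, at 334 and 215 CPM (1.55-fold, 1.05 to 2.27), where 6.1% of all genes were called higher.

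Heat shock genes were lower in double knockout members and in the other double knockout SMC class cells alike, with 9 of 12 called lower and 0 higher in both. Over all genes, 5.71% were called lower in members and 7.54% in the other SMC class cells. Within the cluster the list summed to 11546 CPM against 20497 CPM in Apoe knockout members (ratio 0.56, 0.53 to 0.60). In the other SMC class cells it summed to 10025 CPM against 17909 CPM, a ratio of 0.56. The co-chaperone Dnajb1 was at 147 and 785 CPM, a ratio of 0.19 (0.11 to 0.30), and 0.20 in the other SMC class cells. The inducible chaperones Hspa1b and Hspa1a were at 435 against 1837 CPM and 582 against 1857 CPM, with ratios of 0.24 and 0.31, and of 0.17 and 0.27 in the other SMC class cells, so that both turned to above 1 when divided by those ratios. The sterol-binding Osbpl3 was at 23.3 against 122 CPM, a ratio of 0.19 (0.04 to 0.59), and its ratio in the other SMC class cells was 0.79. Pcgf5, a Polycomb subunit, the receptor Fgfr2, the respiratory chain subunit Ndufb2, the co-chaperone Bag3, Tent5a and the polycystin gene Pkd1 were the other lowest, with ratios of 0.22 to 0.34.

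Of all genes, 6.1% were called higher and 5.71% lower in double knockout members, and 10.5% and 7.54% in the other SMC class cells. Of 17 immediate early genes 4 were called higher, Ier3, Junb, Ier2 and Socs3, and 6 lower, among them Egr1 at 1552 against 3313 CPM and Atf3 at 869 against 1948 CPM. Apoptosis and p53 genes had 4 of 8 called higher and 0 lower, with a sum of 3080 and 1692 CPM in members (1.82-fold) and a 1.77-fold sum in the other SMC class cells. The tumour suppressor Trp53 stood at 147 and 38.9 CPM (3.79-fold, 1.83 to 8.02), the survival factor Mcl1 at 272 and 114 CPM, the stress gene Gadd45b at 1847 and 1041 CPM and the cell cycle inhibitor Cdkn1a at 318 and 184 CPM. Elastic fibre genes had 3 of 11 called lower and 0 higher. Elastin, Eln, stood at 985 and 1604 CPM, a ratio of 0.61, and the latent TGF-beta binding Ltbp4 at 233 and 508 CPM, a ratio of 0.46. Glycolysis and hypoxia genes had 3 of 11 called higher, Gapdh (2.21-fold), Aldoa (1.88-fold) and Pkm (1.57-fold), and 1 lower, the glucose transporter Slc2a1. Interferon response genes had 2 of 3 called higher, Ifitm3 and Irf1, at 3.07-fold and 2.70-fold, and summed to 2.32-fold in members and 2.18-fold in the other SMC class cells. Collagens and basement membrane genes had 0 of 9 called each. For the immediate early, elastic fibre and glycolysis lists the change in the other SMC class cells is not given here, so theirs are not shown to be particular to the cluster.

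**Figure D5:**
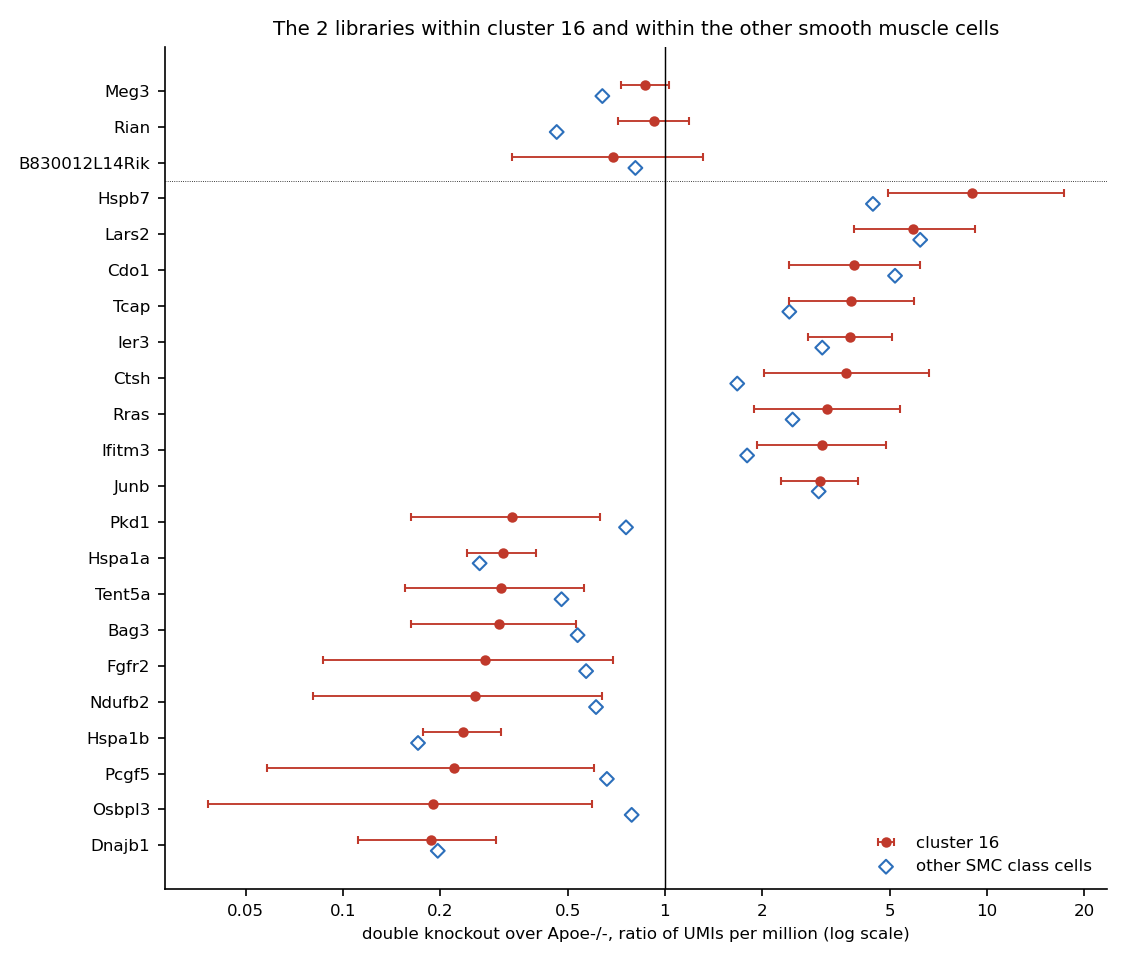
Ratio of CPM in the double knockout over the Apoe knockout (horizontal, log scale) within cluster 16 (red, with 95% intervals) and within the other SMC class cells (blue diamonds), for the 3 RNAs of the row (top) and 9 of the highest and the 10 lowest genes named by the rule. Dnajb1, Hspa1b and Hspa1a lie at 0.19, 0.24 and 0.31 in cluster 16, close to 0.20, 0.17 and 0.27 in the other SMC class cells, while Meg3 and Rian have intervals that hold 1.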

How the data were processed

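Single-cell RNA was read as 10x 3' tags in 2 libraries, 1 per genotype. Per the labels and the submitters' processing notes, Cell Ranger and Seurat were used with the mm10 build; their versions, the annotation and strand use in counting are not given in the sources used here. In their table the authors deposited counts, UMIs per cell and gene, for 14714 genes. The deposited mitochondrial ratio is a fraction per cell, and the deposited cluster number and class are of another kind ("other"), names given by the authors. Among 10345 cell entries, the Apoe knockout had 4856, which are 2428 barcodes in 2 copies with identical counts; each was counted once, although both copies carry a deposited cluster number. The deposited cells had 495 UMIs or more and up to 20.0% mitochondrial UMIs, and no doublets were removed here.

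UMIs were summed per population and scaled to 1000000 (CPM), with exact Poisson intervals for levels, exact conditional binomial intervals for ratios and Clopper-Pearson intervals for shares, at 95%. They cover counting error only. Genes needed 20 UMIs over the cells compared, and a count of 0 was set to a floor of 3 UMIs. No test was made, since cells are not replicates. Named genes were the 15 highest and 8 lowest called ratios against all other cells of the library, at 50 CPM or more, and the 10 highest and 10 lowest between the libraries, from genes with at least 50 UMIs in the cluster and a mean of 50 CPM. Mitochondrial, ribosomal, haemoglobin, predicted and sex-linked genes did not qualify. Some genes that met the rule are not reported here. The 5 genes whose detection correlated best with that of Meg3 were a description only, and members of a list were named by the size of their ratio. The cluster, the marker and pathway lists and the rules were chosen with earlier results of these data known. Summation and intervals used Python 3.11.15 with numpy 2.4.6, pandas 2.3.3 and scipy 1.17.1, and were tested on simulated data. Alternatives were a depth and mitochondrial filter, thinning to 500 UMIs, a mean over cells, other totals, a minimum of 100 UMIs, other folds and the other SMC class cells as comparison.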

Additional observations from a re-analysis of the deposited data

How the results depend on the processing

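No paired analysis was possible because each genotype has 1 library, so no replicate was left out in turn. Meg3 and Rian kept their higher level in cluster 16 under every alternative tried, in both libraries. Among single-gene values under alternatives, 426 kept direction and call, 76 lost and 2 gained the call, and 15 reversed.

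The double knockout share of cells was 1.58% when cells needed 1000 UMIs and a mitochondrial share below 10%. Counts of genes against all other cells moved by over 1.5 times as follows. Double knockout lower calls were 56 in those deeper cells and 21 in thinned cells, and higher calls 85 with at least 100 UMIs. Apoe knockout lower calls were 25 in thinned cells and 92 against the other SMC class cells, and higher calls 68 with at least 100 UMIs and 226 at 1.5-fold. A mean over cells, which has a ratio and no interval, gave 2601 higher and 1572 lower calls in the double knockout and 1734 and 1697 in the Apoe knockout. Between the libraries, higher and lower calls were 57 and 57 in thinned cells, 777 and 946 by the mean over cells, 69 and 114 with at least 100 UMIs, and 142 and 134 at 2-fold. They were 107 and 96 after division by the ratio in all other cells, and 91 and 73 after division by that in the other SMC class cells, an alternative chosen after seeing the data. Both divisions take the other cells' ratio as free of error.

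Reversed log2 ratios against other cells were Galt -0.47 in the deeper double knockout cells, and in the Apoe knockout Tyrobp 0.14 in thinned cells and Ccl4 0.14 against the other SMC class cells, the last with 0 UMIs in the cluster, so its value is set by the floor. Between the libraries, division by all other cells turned Cdo1 (-0.29), Lars2 (-0.073), Dnajb1 (0.019), Hspa1a (0.26), Hspa1b (0.45), Meg3 (0.68) and Rian (1.13). Division by the other SMC class cells turned Cdo1 (-0.43), Lars2 (-0.071), Hspa1a (0.24), Hspa1b (0.47) and Rian (1.01), and Meg3 (0.44), which was called neither before nor after it. A reversal by division means that the other cells differed more between the libraries, in the same direction, than the members did. The cause of the reversals was not tested. Depth limits the double knockout most: 46 of 107 members rest on 1 UMI of Meg3 or Rian, and Mirg was not measurable there.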
